A study of Mus musculus with 11 samples.

Results

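The genes described here are the 9 mouse members of the SoxC, SoxD and SoxE subfamilies of SOX transcription factors, namely Sox4, Sox11 and Sox12 (SoxC), Sox5, Sox6 and Sox13 (SoxD), and Sox8, Sox9 and Sox10 (SoxE). They were chosen by family membership, out of 22225 protein-coding genes in the annotation of the mm9 genome. Every open chromatin region that overlapped a gene body extended by 20 kb on each side was taken, which gave 118 of the 131942 regions in the data. ATAC-seq, in which a transposase inserts adapters into accessible DNA, had been carried out on dopaminergic (DA) and serotonergic (5-HT) neurons purified by fluorescence-activated sorting from mouse embryos at E14.5. The 3 DA libraries came from ventral mesencephalons of TH-GFP embryos, in which the Th promoter drives GFP, on a C57BL/6J background with males mated to Swiss females. The 2 5-HT libraries came from hindbrain rhombomeres of Mash1-CRE x ROSA YFP embryos, also from matings with Swiss females, in which YFP marks cells with a history of Cre expression from Mash1. Tissue from several embryos was pooled for each sort, and the groups differ in genotype and brain region as well as in cell type, so these cannot be told apart.

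SOX factors bind the minor groove of DNA through an HMG box and bend it. SoxC factors carry a transactivation domain and act in newborn neurons, SoxD factors lack such a domain and act as partners or competitors of other SOX proteins through a coiled coil, and SoxE factors are known for roles in glia, neural crest and cartilage. Their genes also differ in size, as SoxC and SoxE genes are short while Sox5 and Sox6 are among the long genes of the genome.

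Each library gives a score for the same 131942 regions, where 0 means that no peak was called and a higher value means a stronger peak. No unit or scale is given for it. A peak was present in 52861, 93055 and 94351 regions in DA replicates 1, 2 and 3, and in 38772 and 22879 regions in 5-HT replicates 1 and 2. The 5-HT libraries therefore had fewer peaks than any DA library, and the read depth behind the peaks is unknown. By the methods, each 5-HT library was also made from fewer sorted cells than any DA library. Cell number thus cannot be told apart from group, and its part in missing peaks was not tested. Over the regions with a peak in all 5 libraries, the median score was 7.55, 9.28 and 8.08 in the DA libraries and 5.65 and 3.98 in the 5-HT libraries, so a score in 1 library cannot be read directly against a score in another. For this reason, calls were also made with each library limited to its 22879 highest-scoring peaks. In bulk samples, fewer cells with an open site and less signal per cell cannot be told apart.

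The labels were first checked against marker genes. All 10 promoters of the DA neuron markers had a peak in every DA library, but 5 of them also had one in both 5-HT libraries, 3 had one in 1 5-HT library and 2 were without a peak in either. Of these 2, the promoter of Th, the rate-limiting enzyme of dopamine synthesis, scored 9.91, 10.6 and 8.45 in the DA libraries and 0 in the 5-HT libraries, and the promoter of Lmx1a, a determinant of midbrain DA neurons, showed the same pattern. The 5-HT neuron markers separated the groups less. Of their 8 promoters, 3 had a peak in all 5 libraries (Tph2, Gata3 and Insm1). A further 2 had one in each DA library and in neither 5-HT library (Slc6a4 and Maob), and 3 had one in some libraries of a group. Fev, a serotonergic fate factor, had a promoter peak in 5-HT replicate 1 only (3.88), Tph2, the enzyme of serotonin synthesis in the brain, had one in all 5 libraries, and the serotonin transporter gene Slc6a4 had one in each DA library and a score of 0 in the 5-HT libraries. Gata3, another factor of 5-HT neurons, had a promoter peak in all 5 libraries, and at equal numbers of peaks kept it in both 5-HT libraries and in 1 DA library. None of the 8 promoters of this list was open in both 5-HT libraries while closed in every DA library.

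Markers of other cell types were also looked at. Of 8 vascular and pericyte markers, 3 had a promoter peak in all DA libraries and 0 in both 5-HT libraries, and the summed promoter score was 13.5, 24.1 and 16.8 in the DA libraries and 8.52 and 0 in the 5-HT libraries, with Cldn5 the highest. Of 7 microglia markers, 5 had no promoter region in any library, among them Csf1r and Cx3cr1, and the summed score ranged from 0 to 4.31. For 5 GABA neuron markers, 4 promoters had a peak in all 5 libraries, and that of Slc32a1 was open in the DA libraries only. With equal numbers of peaks, 3 of them (Gad1, Gad2 and Tal1) lost the peak in every DA library and kept it in both 5-HT libraries. In 5-HT replicate 2 no peak can be lost, as the limit is its own peak number. The limit also fell at higher scores in the DA libraries (5.54, 6.70 and 5.97) than in the 5-HT libraries (4.18 and 2.83). The reverse was seen for 0 of the 5. Of the regions centred in a promoter that kept a peak, 4.16% had it in both 5-HT libraries and no DA library, and 1.28% the reverse. For 5 glutamate neuron markers, 3 promoters had a peak in all DA libraries and 0 in both 5-HT libraries, and Slc17a6, a vesicular glutamate transporter, was the highest (9.97, 12.9 and 12.8 in the DA libraries, above Th in each, and 3.65 and 0 in the 5-HT libraries). The part of other cells in the values of the SOX genes was not tested.

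The promoters of the 9 genes were described first. A promoter region, taken from 1 kb upstream to 100 bp downstream of any annotated transcription start site (TSS), had a peak in all 5 libraries for 5 of the 9 genes (Sox4, Sox11, Sox12, Sox5 and Sox9), against 48.5% of all protein-coding genes. It was DA-specific, meaning a peak in each of the 3 DA libraries but in none of the 5-HT ones, for 1 gene (Sox6), against 2.05%. At equal numbers of peaks, the 3 SoxC promoters alone kept a peak in all 5 libraries (37.9% of all genes) and 0 of the 9 were DA-specific (0.387%). The Sox5 promoter region at the outermost TSS was left with a peak in 1 library and the Sox9 promoter in 2. All SoxC promoters were open in all libraries, and Sox10 was the single gene with no promoter region in any library.

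**Figure D1:**
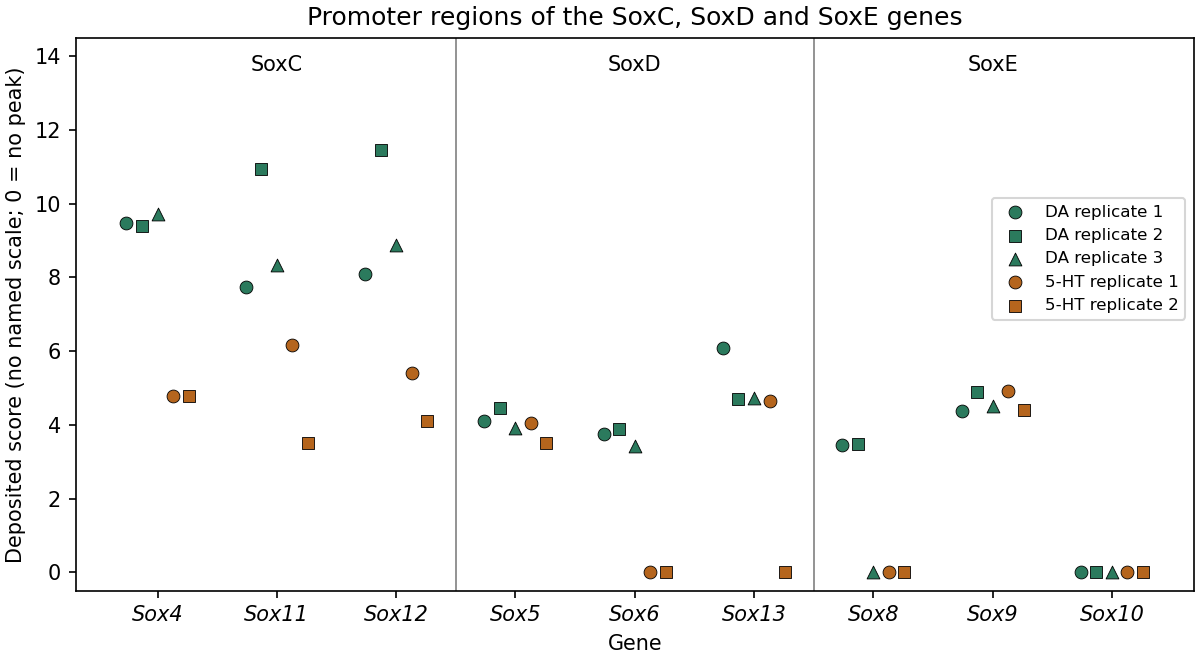
Deposited score (vertical axis, no named scale, 0 for no peak) of the promoter region of each of the 9 genes, with one point for each of the 3 DA and 2 5-HT libraries. The SoxC promoters score from 7.75 to 11.5 in the DA libraries and from 3.51 to 6.18 in the 5-HT libraries, whereas the Sox9 promoter lies between 4.38 and 4.92 in all 5.

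Among the SoxC genes, Sox4 and Sox11 encode closely related activators of the neuronal programme in cells leaving the cycle, and Sox12 a weaker activator. The Sox4 promoter region on chromosome 13 (29043264 to 29045928, 2665 bp) scored 9.46, 9.38 and 9.72 in DA replicates 1 to 3 and 4.78 and 4.78 in 5-HT replicates 1 and 2. The Sox11 promoter region on chromosome 12 (28026018 to 28028922) scored 7.75, 10.9 and 8.35 in the DA libraries and 6.18 and 3.51 in the 5-HT libraries. The Sox12 promoter region on chromosome 2 (152221396 to 152226025), the widest of the 3 at 4630 bp, scored 8.09, 11.5 and 8.88 against 5.40 and 4.12. In each of the 3 cases the DA libraries lay above the 5-HT libraries without overlap, which held for 81.1% of the 16856 regions with a peak in all libraries. The mean DA scores of the 3 promoters, 9.52 ± 0.176 for Sox4, 9.47 ± 1.76 for Sox12 and 9.01 ± 1.70 for Sox11 (SD, n = 3), did not differ beyond their spread.

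The windows of the SoxC genes held 18 regions. Of these, 9 had a peak in all 5 libraries (50%, against 12.8% over all regions) and 1 was DA-specific (5.56%, against 13.4%). In windows of all protein-coding genes the shares were 17.0% and 13.4%, and over regions centred in a promoter 58.1% and 5.53%. Of the 9, 1 lay in the promoters of Zcchc3 and 6820408C15Rik, in the Sox12 window. These 9 regions were wide, with a median width of 1681 bp, and rich in GC, with a median of 67% in their central 200 bp. Over all regions with a peak in the 5 libraries, the medians were 1091 bp and 60.5%. The other 8 regions had a peak in some libraries of a group, and 5 of them in DA replicate 2 alone.

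Outside promoters, the shared region of the 9 genes with the highest mean DA score lay 8219 bp upstream of the Sox12 TSS, in an intergenic stretch of chromosome 2 (152231596 to 152232407). It scored 12.3, 14.7 and 15.6 in the DA libraries and 7.21 and 3.79 in the 5-HT libraries. Among the 16856 regions shared by all libraries it ranked 2109, 2641 and 1310 from the top in the DA libraries and 3983 and 9575 in the 5-HT libraries, so that it stood higher in every DA library, as did 17.7% of the shared regions. A broad intergenic region 5052 bp upstream of the Sox4 TSS (chromosome 13, 29049404 to 29051864, 2461 bp) scored 7.50, 9.46 and 6.96 against 6.32 and 4.28. Its ranks among the shared regions, 8533, 8146 and 10678 in the DA libraries and 6212 and 6928 in the 5-HT libraries, stood higher in both 5-HT libraries than in any DA library, as did those of 17% of the shared regions. The single DA-specific SoxC region lay 5526 bp downstream of the outermost Sox4 TSS, in an intron of the gene model Gm17419 (29039348 to 29040765), with scores of 4.54, 4.82 and 4.18.

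The central 200 bp of the non-promoter regions shared by all libraries near Sox12 and Sox4 are given here because they rank highest by their lowest score. The sequences are from the mm9 genome, 5′ to 3′ on the minus strand, on which both genes lie, at chr2:152231902-152232101 and chr13:29050534-29050733. Neither holds ACAAAG or ACAATG on either strand, the SOX words searched for, and at least 1 of the words was found in 26.0% of the central windows of all regions.
Sox12: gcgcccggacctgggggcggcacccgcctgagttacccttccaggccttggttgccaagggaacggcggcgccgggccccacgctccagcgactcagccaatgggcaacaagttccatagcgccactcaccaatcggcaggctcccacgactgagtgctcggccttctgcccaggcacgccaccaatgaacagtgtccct
Sox4: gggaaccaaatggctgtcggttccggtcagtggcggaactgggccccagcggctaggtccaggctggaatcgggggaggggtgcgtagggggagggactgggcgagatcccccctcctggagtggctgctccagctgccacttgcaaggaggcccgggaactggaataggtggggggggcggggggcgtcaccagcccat

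Among the SoxD genes, Sox5, which acts in the timing of cortical and other neuron production, extends over 954 kb of chromosome 6 and had 52 regions in its window. Sox6, a regulator of erythroid cells, chondrocytes and neuron subtypes including midbrain DA neurons, extends over 567 kb of chromosome 7 and had 29. The shorter Sox13 (42.1 kb, chromosome 1) had 8. Per 100 kb of window, Sox5 had 5.23 regions, Sox6 4.77 and Sox13 9.75, while the median over all protein-coding genes was 5.92 and that of the 201 genes of 500 kb or more was 4.36.

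Of the 89 SoxD regions, 17 were DA-specific (19.1%), 5 had a peak in all 5 libraries (5.62%) and 0 were 5-HT-specific, where the share over all regions is 0.389%. Of the 5 with a peak in all libraries, 1 was the promoter of Etnk2, in the Sox13 window. DA-specific regions were 11 of 52 for Sox5, 5 of 29 for Sox6 and 1 of 8 for Sox13. Over all intronic regions the DA-specific share was 15.3%, and in windows of genes of 500 kb or more it was 14.7%. The share with a peak in all 5 libraries was 12.8% over all regions, 7.55% over intronic regions and 6.86% in those windows. A further 37 SoxD regions had a peak in a single library, namely 20 for DA replicate 2, 9 for 5-HT replicate 1, 6 for DA replicate 3 and 2 for DA replicate 1. Over all regions 58671 had a peak in a single library, with 22947, 4577, 26790 and 2726 in the same order.

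The 17 DA-specific SoxD regions had a median score of 4.73, 4.88 and 4.48 in DA replicates 1, 2 and 3, close to the medians of all DA-specific regions (4.55, 4.96 and 4.66) and under those of the shared regions. The medians of all peaks were 5.12, 4.44 and 4.01. With each library limited to its 22879 highest-scoring peaks, 0 of the 17 was called DA-specific, and over the 9 genes the count was 1 of the 37 regions that kept a peak, against 6.94% of 40691 regions. Of the 17, 13 kept no peak in any DA library under this limit and 4 kept one in 1 or 2. By definition none had a peak in a 5-HT library, and the limit cannot add one.

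**Figure D2:**
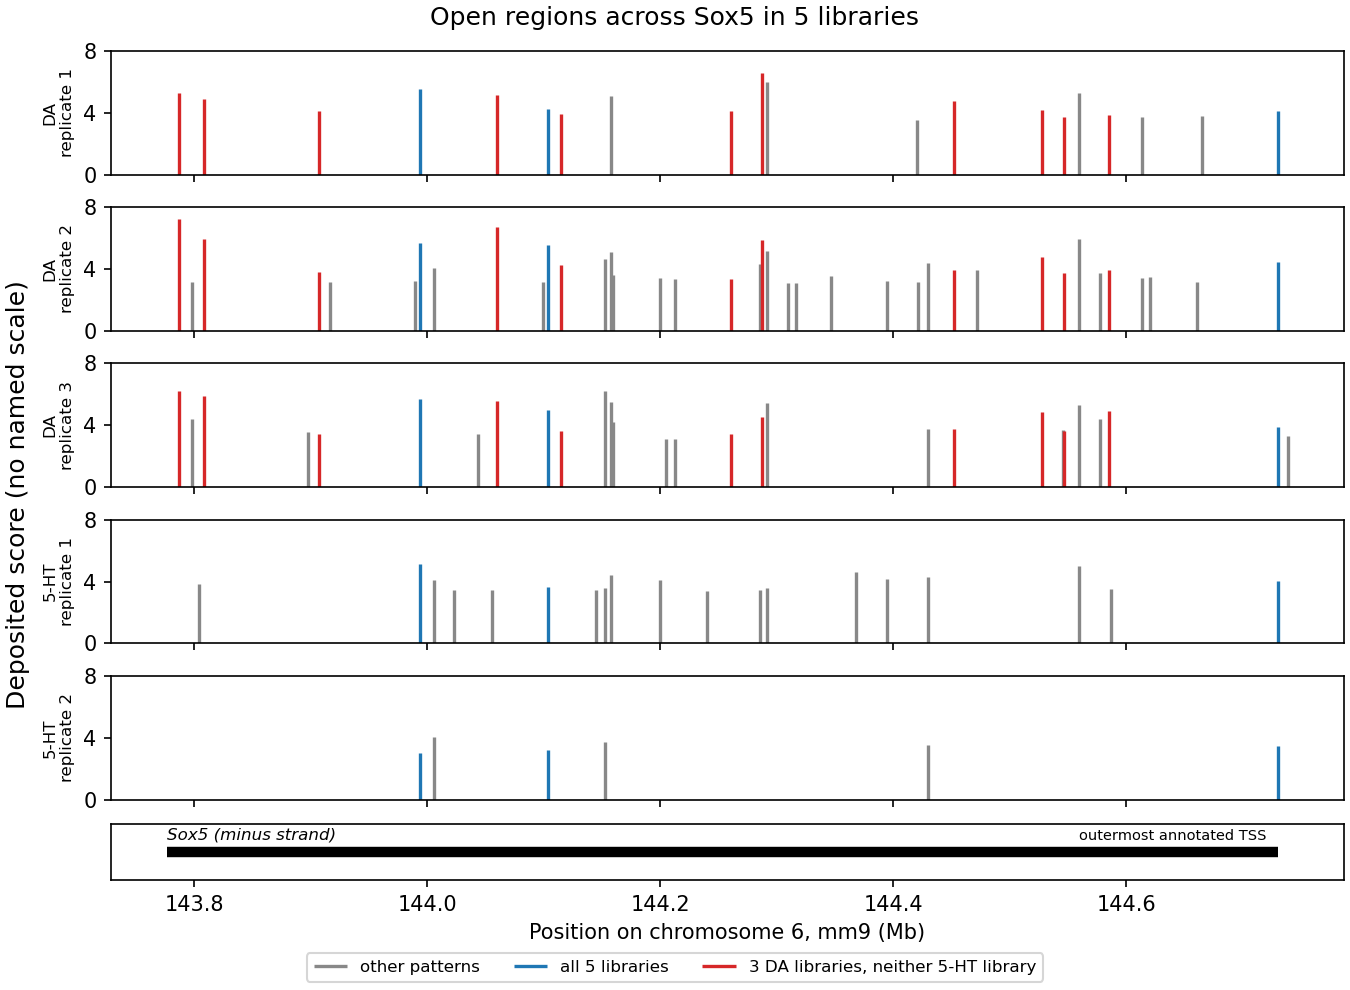
Deposited score (vertical axes, no named scale) of every region in the Sox5 window along chromosome 6 of mm9 (horizontal axis, Mb), with one panel for each of the 3 DA and 2 5-HT libraries and the gene body drawn below. Of the 52 regions, 11 are DA-specific, 3 have a peak in all 5 libraries, and 5-HT replicate 2 has 6 peaks in all.

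The DA-specific SoxD region with the highest lowest DA score lay near the 3′ end of Sox5, in an intron (143786790 to 143787680), and scored 5.28, 7.23 and 6.24. Another intronic region of Sox5 (144060125 to 144060626) scored 5.15, 6.72 and 5.56. The DA-specific region of Sox13 (chromosome 1, 135278696 to 135278925) overlapped the 3′ end of the gene and scored 5.37, 6.35 and 4.96. All had a score of 0 in both 5-HT libraries. In DA replicate 2 the 3 regions ranked 19631, 22740 and 25290 among 93055 peaks, so they were not among the strongest peaks of the library.

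Regions of Sox5 with a peak in all libraries were an intronic one (143993983 to 143994462), which scored 5.56, 5.68 and 5.68 in the DA libraries and 5.10 and 3.04 in the 5-HT libraries, and an exonic one (144103423 to 144103923), which scored 4.22, 5.55 and 4.99 against 3.65 and 3.24. The promoter region at the outermost TSS of Sox5 (144729830 to 144731626) scored 4.10, 4.45 and 3.92 in the DA libraries and 4.05 and 3.50 in the 5-HT libraries, and the groups overlapped. Promoter regions at internal TSSs had a peak in fewer libraries. That at 144152591 to 144153056 scored 0, 4.65 and 6.21 against 3.57 and 3.71, and at equal numbers kept a peak in 1 DA and 1 5-HT library. That at 144157580 to 144158291 scored 5.10, 5.08 and 5.52 against 4.43 and 0. The longest stretch of the gene without any region was 88.7 kb (143808551 to 143897215).

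For Sox6, the promoter region with most libraries lay at a TSS inside the gene (chromosome 7, 123175234 to 123175968), shared with the promoter of 1110006G14Rik, and scored 3.75, 3.90 and 3.42 in the DA libraries and 0 in both 5-HT libraries. At the outermost TSS, a narrow region had a peak in DA replicate 2 alone (3.67). A region 1522 bp upstream of that TSS (123183441 to 123184119) scored 5.51, 8.06 and 5.62 in the DA libraries and 5.58 and 3.00 in the 5-HT libraries. When promoters were widened to 2 kb before and 500 bp after a TSS, this region made Sox6 a gene with a promoter peak in all 5 libraries. For Sox13, 2 promoter regions had a peak in each DA library and in 5-HT replicate 1 but not in 5-HT replicate 2. The one just upstream of an internal TSS (135282206 to 135282554) scored 6.10, 4.70 and 4.72, and 4.66 in 5-HT replicate 1. The wider one at the outermost TSS (135319363 to 135321248) scored 5.45, 4.75 and 3.70, and 4.06.

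Sox5 sequences were chosen because they show both kinds of region, DA-specific and shared, within 1 gene. The SOX words ACAAAG and ACAATG or their reverse complements CTTTGT and CATTGT are in capitals, and all are read 5′ to 3′ from mm9 on the minus strand, the strand of Sox5. The first (chr6:143787135-143787334) and second (chr6:144060276-144060475) are DA-specific and the last (chr6:143994123-143994322) is shared. The second holds CTTTGT and CATTGT separated by 1 base, the last holds CATTGT and ACAATG, and the first holds none of the words. The exonic shared region of Sox5, not shown, holds 0 of the words in its central 200 bp. Its lowest score was 3.24, above the 3.04 of the shared region shown. Among the regions with a peak in all 5 libraries, a SOX word was present in 2 of the 5 SoxD ones, against 17.5% over all. A SOX word was present in 29 of the 89 SoxD central windows (32.6%) and in 3 of the 17 DA-specific ones (17.6%), against 26.0% of all regions and 25.2% of all DA-specific regions.
First: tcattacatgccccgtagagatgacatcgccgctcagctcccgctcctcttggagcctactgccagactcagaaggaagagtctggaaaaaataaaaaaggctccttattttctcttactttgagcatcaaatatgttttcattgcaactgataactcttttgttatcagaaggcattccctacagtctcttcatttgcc
Second: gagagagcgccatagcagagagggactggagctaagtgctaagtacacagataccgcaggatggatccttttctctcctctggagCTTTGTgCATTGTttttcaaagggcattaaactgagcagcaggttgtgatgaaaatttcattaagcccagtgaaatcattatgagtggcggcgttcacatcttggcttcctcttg
Last: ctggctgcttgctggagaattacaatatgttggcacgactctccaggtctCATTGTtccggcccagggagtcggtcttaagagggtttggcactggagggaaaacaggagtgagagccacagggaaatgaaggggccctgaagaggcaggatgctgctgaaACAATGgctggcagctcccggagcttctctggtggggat

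SoxE genes had the fewest regions, 11 in all, of which 2 had a peak in every library, 2 were DA-specific and 1 was 5-HT-specific, against 12.8%, 13.4% and 0.389% over all regions. Sox9 maintains neural progenitors and gliogenesis and drives cartilage formation, Sox10 directs neural crest and oligodendrocyte lineages, and Sox8 overlaps with both in expression. The Sox9 promoter region on chromosome 11, which also overlapped a promoter of BC006965, scored 4.38, 4.89 and 4.53 in the DA libraries and 4.92 and 4.41 in the 5-HT libraries. The scores of the 2 groups overlapped, unlike those of the SoxC promoters. Among the regions shared by all libraries, it ranked 15494, 15463 and 15441 from the top of 16856 in the DA libraries and 11433 and 6353 in the 5-HT libraries. It thus stood higher in both 5-HT libraries than in every DA library, as did 17% of the shared regions.

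The second Sox9 region, in an exon (112646270 to 112646721), was DA-specific, with scores of 5.32, 5.36 and 4.20. The Sox8 promoter region (chromosome 17, 25707034 to 25708262) had weak peaks in DA replicate 1 (3.45) and DA replicate 2 (3.48) and none in the other libraries. It also overlapped a promoter of 2810468N07Rik. The one Sox8 window region in all 5 libraries (25715839 to 25716357) was the promoter of the neighbouring gene Lmf1, which scored 8.21, 13.5 and 10.5 in the DA libraries against 5.50 and 4.19.

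The Sox10 window held 4 regions, and none had a peak in all libraries. A DA-specific region in an intron of the neighbouring gene Polr2f (chromosome 15, 78979071 to 78979273) scored 5.96, 8.78 and 6.79. Nearby, at the 3′ end of Polr2f, lay the 5-HT-specific region (78982174 to 78982858), with 3.86 and 3.29 in the 5-HT libraries, of which 1 kept the peak at equal numbers of peaks, so that the call was lost. They lie 15748 and 12404 bp downstream of the outermost Sox10 TSS, and which gene they act on, if any, was not tested. The DA-specific region was the only one of the 9 genes called DA-specific at equal numbers of peaks.

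At equal numbers of peaks, 4 of the 37 regions were 5-HT-specific, against 5.79% over all regions, and 7 had a peak in all 5 libraries, against 27%. The 4 were the Sox9 promoter, a region 13062 bp upstream of Sox12, a region in the promoter of Gm15685 inside Sox5, and a region downstream of Sox8. None lacked DA peaks as deposited. The Sox9 and Sox12 regions had a peak in all 5 libraries, the Sox5 region in 2 DA libraries and the Sox8 region in 1. The Sox12 region scored 4.67, 5.29 and 4.72 in the DA libraries, above the 4.26 and 3.10 in the 5-HT libraries. These calls are made at different score limits (5.54, 6.70 and 5.97 for DA replicates 1 to 3, and 4.18 and 2.83 for 5-HT replicates 1 and 2).

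The central 200 bp of the DA-specific region near Sox10 (chr15:78979072-78979271, minus strand, on which Sox10 lies) are shown because this call held at equal numbers of peaks. They hold no SOX word.
Sox10: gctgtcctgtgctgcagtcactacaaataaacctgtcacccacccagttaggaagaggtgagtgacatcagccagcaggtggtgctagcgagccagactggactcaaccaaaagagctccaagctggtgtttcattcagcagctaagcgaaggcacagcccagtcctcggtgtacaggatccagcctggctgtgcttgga

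The scores of the shared regions were then compared between the groups. After quantile normalisation of log2 scores, limma was fitted on the 16856 regions with a peak in all 5 libraries. It called 0 of the 16 regions near the 9 genes at an adjusted p under 0.05, while 3 had an unadjusted p under 0.05, near the share of 17.6% over all shared regions. Over all regions, 0.403% were called higher in DA neurons (68) and 0.896% higher in 5-HT neurons (151). The median difference of the 16 regions was 0.03 on the log2 scale, DA minus 5-HT, against 0.01 over all shared regions.

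**Figure D3:**
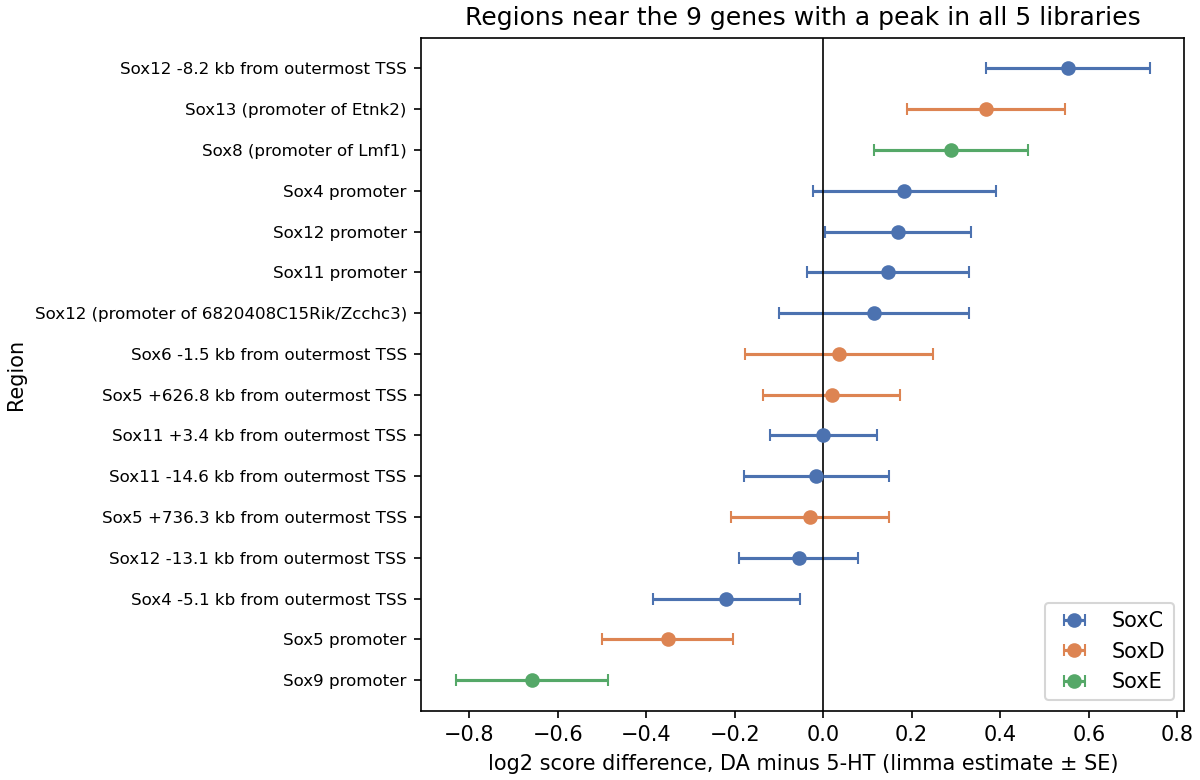
Difference in log2 score between DA and 5-HT libraries (horizontal axis, limma estimate with its SE as bars) for the 16 regions near the 9 genes with a peak in all 5 libraries, coloured by subfamily. Estimates run from -0.66 at the Sox9 promoter to 0.55 upstream of Sox12, and none passed the adjusted threshold.

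The difference farthest from 0 was that of the Sox9 promoter, with a log2 difference of -0.66 (SE 0.17) and a limma adjusted p of 0.083. The region upstream of Sox12 had a difference of 0.55 (SE 0.19, limma adjusted p = 0.158), and the Sox5 promoter one of -0.35 (SE 0.15, limma adjusted p = 0.245). The SoxC promoters had differences of 0.18 (SE 0.21, Sox4), 0.17 (SE 0.17, Sox12) and 0.15 (SE 0.18, Sox11). Without 5-HT replicate 1 or 2, respectively, the log2 difference was 0.84 or 0.29 upstream of Sox12 and -0.57 or -0.19 at the Sox5 promoter. It turned in sign at the Sox4 promoter (-0.13 or 0.52) and at the Sox11 promoter (0.37 or -0.06), and was 0.10 or 0.25 at the Sox12 promoter. With median scaling in place of quantile normalisation, 4 of the 16 regions passed in limma, against 10.7% over all shared regions, among them the Sox9 promoter (-0.82, adjusted p = 0.00707), the region upstream of Sox12 (0.63, adjusted p = 0.0378) and the Sox5 promoter (-0.66, adjusted p = 0.0187). The fourth, a region beyond the annotated 3′ end of Sox11, moved from 0.00 to -0.51 (adjusted p = 0.0487). Without 5-HT replicate 1, the first 3 of these passed, near the share of 17.2% over all, with the remaining 5-HT library assumed to vary like the others.

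The gene lists tied to the subfamilies were described by their promoters. Of 10 early neuronal genes linked to SoxC, 6 had a promoter peak in all 5 libraries, near the 48.5% of all protein-coding genes, and 2 were DA-specific, against 2.05% of all, while at equal numbers of peaks 0 were. Tubb3, a neuronal tubulin, scored 6.38, 8.87 and 5.72 in the DA libraries and 4.10 and 5.02 in the 5-HT libraries, and Dcx, a microtubule protein of migrating neurons, lacked a peak in 5-HT replicate 2 alone. Of 10 cartilage genes linked to SoxD and Sox9, 1 had a promoter peak in all 5 libraries (Col2a1), 1 was DA-specific (Col9a1) and 3 had no promoter region. Of 10 oligodendrocyte genes linked to SoxE and SoxD, 2 (Olig1 and Pdgfra) had a promoter peak in all 5 libraries, while 5 had no promoter region. At equal numbers of peaks, 2 cartilage promoters (Col2a1 and Col9a3) and 2 oligodendrocyte promoters (Olig2 and Pdgfra) were 5-HT-specific, and 0 in either list were DA-specific. Of the regions centred in a promoter that kept a peak, 4.16% were 5-HT-specific and 1.28% DA-specific. As deposited, each of the named promoters also had a peak in 2 or 3 DA libraries. These calls depend on the higher score limits of the DA libraries.

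Of 10 neural crest derivative genes linked to Sox10, 4 had a promoter peak in all 5 libraries, Mitf among them, and 1 was DA-specific (Tyrp1). Of 10 astroglial and radial glial genes linked to Sox9, 5 had one in all 5 libraries, including Nfia and Nfib, and 0 were DA-specific. Over all protein-coding genes the shares were 48.5% and 2.05%. At equal numbers of peaks, 1 neural crest promoter was DA-specific (Tyrp1) and 1 was 5-HT-specific (Ednrb), against 0 and 0 in the astroglial list. Over regions centred in a promoter the shares were 1.28% and 4.16%. As deposited, the Ednrb promoter had a peak in all 5 libraries. These counts are a description, and no test was made between the lists.

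Against other SOX subfamilies, the windows of 4 SoxB genes held 32 regions, of which 1 was DA-specific and 7 had a peak in all 5 libraries, and those of 3 SoxF genes held 18, of which 1 and 2 did (13.4% and 12.8% over all regions). At equal numbers of peaks, 6 of 13 SoxB regions were 5-HT-specific, against 4 of 37 for the 9 genes and 5.79% over all regions. No test was made between subfamilies.

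The promoters most like those of the members over the 5 libraries were found by the Euclidean distance of log10 ranks, among 10771 other genes with a promoter peak in all libraries. They were Gm2237 (0.15) and Baiap2 (0.19) for Sox4, and Irx2 (0.11) and Cdkl1 (0.13) for Sox9.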

How the data were processed

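Peaks of 3 DA and 2 5-HT ATAC-seq libraries were analysed, and RNA-seq was not analysed here. The submitters' processing notes name Trimmomatic, FastQC, Bowtie2, Picard, MACS2, HOMER and mm9, and their versions are not given in the sources used here. The authors deposited 1 score per region and library, with no peak as 0 and no named scale. The methods state that peaks less than 100 bp apart were merged. A misspelled chromosome in 1 line was set right. Gene models were those of GENCODE for mm9, and 1 listed gene (Sox1) was not analysed here. Differences between the groups were tested with limma 3.58.1 in R 4.3.3 (trended variance, Benjamini-Hochberg adjustment), and the procedure was tested on simulated data, where it missed most of the smaller changes. Other steps used Python 3.11.15, NumPy 2.4.6 and pandas 2.3.3. Named regions were the promoters of the 9 genes, the 3 DA-specific regions with the highest lowest DA score and the 2 non-promoter shared regions with the highest lowest score in each subfamily, and the 5-HT-specific region; others were named after their values were seen. The members and lists were chosen with earlier results of these data known. By the methods, the libraries came from separate sorts, 3 for DA and 2 for 5-HT neurons, and p-values measure the spread between these sorts. With 3 libraries against 2, a one-sided exact permutation test cannot go below p = 0.1, so none was used.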

Additional observations from a re-analysis of the deposited data

How the results depend on the processing

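The DA-specific counts changed with the number of peaks used. With equal numbers of peaks, the counts near SoxC, SoxD and SoxE genes went from 1, 17 and 2 to 0, 0 and 1, and with 10000 peaks per library to 0 in each. With only peaks above the median score of their library, they were 0 for SoxC and 7 for SoxD. Gene bodies without a flank gave 0 for SoxC and 1 for SoxE, and 50 kb on each side gave 4 for SoxC. Leaving out each library gave 1 to 3 for SoxC, 17 to 27 for SoxD and 2 to 4 for SoxE. Regions with a peak in all 5 libraries fell from 16 to 7 with equal numbers of peaks, to 0 with 10000 peaks, to 7 without a flank and to 5 with peaks above the median score, and leaving out each library gave 16 to 26.

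For shared regions called by limma, the main count of 0 became 4 with median scaling. When all regions with at least 1 peak were fitted, with 0 for a missing peak, 0 of the 16 shared regions were called and 1 other region was, the DA-specific one near Sox10. Leaving out each library gave 0 to 3, all 3 without 5-HT replicate 1. Over all regions, 68 were called higher in DA and 151 higher in 5-HT, against 402 and 1400 with median scaling, 2152 and 387 with regions in at least 1 library, 1355 and 1537 without 5-HT replicate 1, 588 and 794 without 5-HT replicate 2, and at most 2 in either direction without any single DA library. With the replicate block, 0 regions near the 9 genes were called, and 2 and 2 over all regions. The deviations of same-numbered libraries from their group means had correlations of -0.0086 and 0.026. With 2 5-HT libraries these deviations are mirror images of each other, so the check cannot settle whether same-numbered samples are paired. The cause of the changes between settings was not tested. Read depth is unknown and limits what a missing peak can show.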
